A study of Mus musculus with 20 samples.

Results

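Microglia are the resident macrophages of the brain, and the genes described here are 30 genes by which these cells and the macrophages along blood vessels are commonly recognised. They were picked by gene symbol from the 22048 genes of the count tables, and all 30 were found. The symbol Itgam stood on a second row, which held 0 counts in every sample and is a readthrough gene (Gm49368) in the GENCODE annotation, so 31 rows matched and 30 were used.

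The samples were laser-captured arcuate nuclei (ARC), the part of the hypothalamus that holds the AgRP and POMC neurons of feeding control, from male C57BL6/J mice given as 10 weeks old in the labels. Corticosterone (Cort), the main glucocorticoid of the mouse, was given in the drinking water at 75 µg/ml in 1% ethanol. Vehicle mice drank 1% ethanol. Each treatment was given for 2 days or for 4 weeks, with 5 samples in each of the 4 groups. Mice of both 4 week groups were fasted for 16 h and refed for 24 h before they were culled, and stayed on their drinking water throughout. Section thickness, slides, laser system and sequencer also differed between the datasets, so treatment time cannot be told apart from them. No cells were sorted: a value is the level of a transcript in the whole dissected nucleus, in which fewer microglia and less RNA per microglial cell cannot be told apart.

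The study set 3 samples of each dataset aside as outliers of its principal component plots, leaving 3 vehicle and 4 Cort samples. At 2 days these were vehicle samples C07 and C09 and Cort sample C08, and at 4 weeks vehicle samples C01 and C05 and Cort sample C06, in the study's sample codes. The remaining 7 samples of a dataset are called kept below, and results on all 10 stand beside those of the members described most closely. The 2 day libraries had between 2487063 and 5748223 counts in genes, and the 4 week libraries between 1065776 and 5196364. Levels are given as CPM, the gene's count relative to the scaled library total. Taking 3 counts as the floor under which a level cannot be distinguished from 0, the floor was between 0.512 and 1.19 CPM in the 2 day and between 0.619 and 2.75 CPM in the 4 week libraries. These floors and the intervals below cover counting and sample error only, since cDNA was amplified before sequencing and reads carried no molecular identifiers.

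Microglia survey the tissue with motile processes that carry receptors for neuronal fractalkine (CX3CR1) and for released nucleotides (P2RY12 and P2RY13). They depend for survival on the receptor CSF1R, make most of the C1q that opens the classical complement pathway in the brain, and digest what they take up in lysosomes rich in cathepsins. Their identity is set by the transcription factors PU.1 (encoded by Spi1), IRF8 and SALL1. Glucocorticoids act on microglia and macrophages through the glucocorticoid receptor and are known for their anti-inflammatory effect on them.

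The label of the list was checked first against the levels. Cx3cr1, P2ry12, Tmem119, Csf1r, C1qa, C1qb, Tyrobp and Ctss had counts in each of the 20 samples. Each 2 day sample held counts of 27 to 30 members and each 4 week sample counts of 21 to 28. The members at the low end included those of perivascular macrophages (Mrc1 and Cd163), the lipopolysaccharide co-receptor Cd14, the lipid phosphatase Inpp5d and the transcription factors Spi1 and Irf8. On a scale that allows genes to be compared, CPM per kilobase of merged exon, the highest median level at 2 days was that of Ctsd at 152.7, followed by C1qb at 77.3, Tyrobp at 58.7 and Ctss at 57.2. Csf1r had a median of 11.1, Cx3cr1 of 9.44, Tmem119 of 6.61 and Spi1 of 1.52 CPM per kilobase. At 4 weeks the order began with Ctsd at 187.5, Ctss at 52.4, C1qc at 39.5 and Tyrobp at 26.1, while the medians of Spi1, Cd14 and Cd163 were 0. Ctsd, the lysosomal protease cathepsin D, is also made by neurons, and it contributed 24.5 to 59.4% of the members' summed CPM in a sample.

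**Figure D1:**
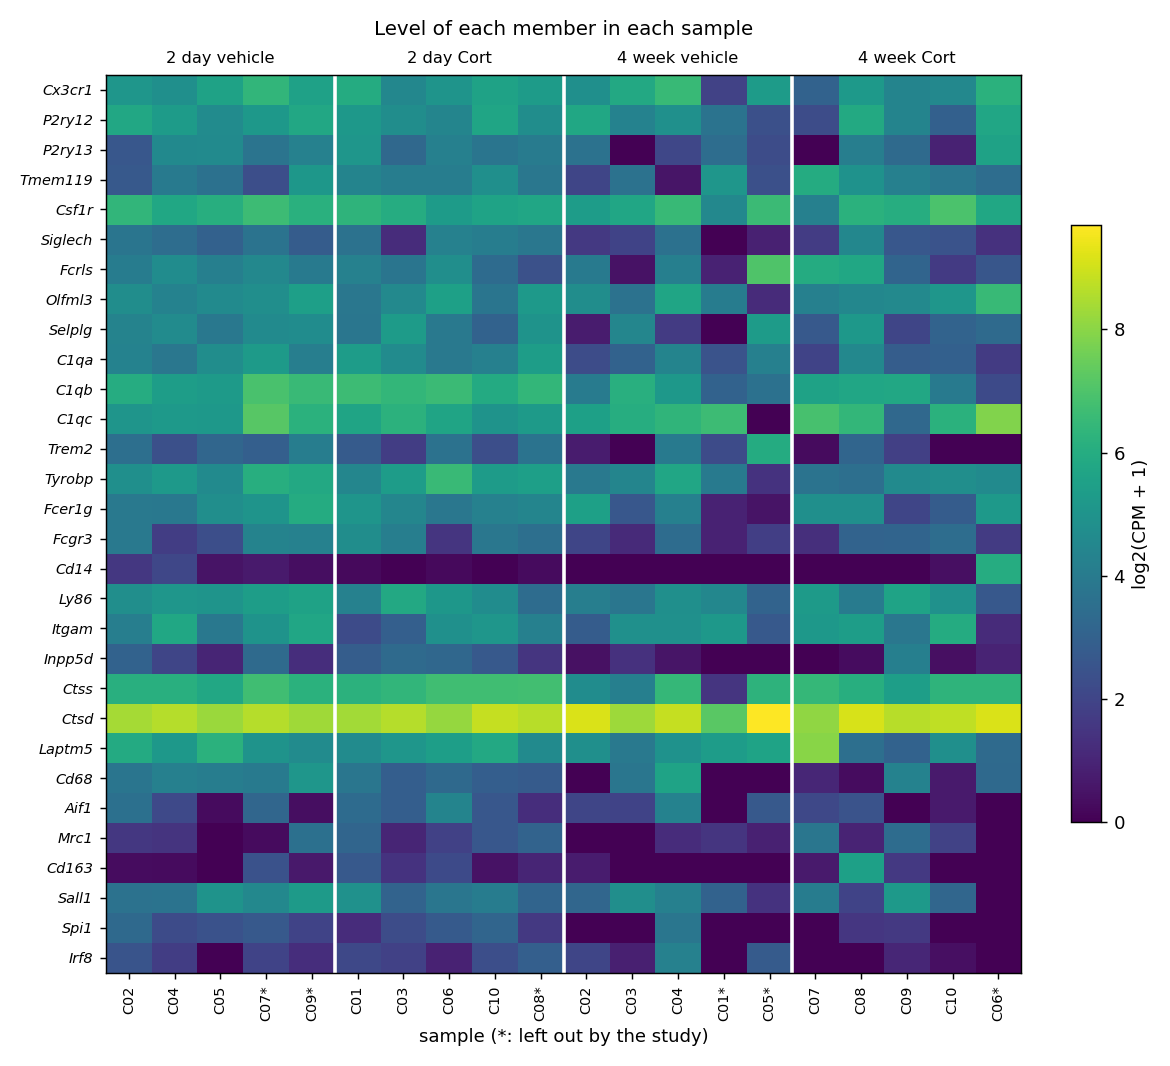
Colour shows log2(CPM + 1) of each of the 30 members (rows) in each of the 20 samples (columns), grouped by treatment and dataset, with an asterisk on the samples left out by the study. Ctsd was the brightest row in all groups, and values of 0 (darkest cells) were more frequent at 4 weeks, where 21 to 28 members were detected per sample, than at 2 days, where 27 to 30 were.

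Some members share sequence or exons with other genes, which bears on their counts. In the GENCODE M21 annotation of GRCm38, 68.67% of the exon bases of Itgam overlapped Gm49368, 34.37% of those of Ctsd overlapped Gm49369 and 15.12% of those of Csf1r overlapped Hmgxb3. Of the 50-base stretches of the transcripts of Fcgr3, 9.58% also occurred in Fcgr2b, its inhibitory relative. The levels of these 4 members are uncertain to that extent. C1qa, C1qb, C1qc, P2ry12, Tmem119, Tyrobp, Ctss, Laptm5 and Cd68 shared no such stretch with another gene.

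The promoters of the members carried a feature that their choice by symbol did not use. RefSeq promoters (GRCm38.p6, 250 bases before to 50 bases after the start site) were found for 23 of the 30 members, in 27 windows. The core of the sites bound by PU.1, GAGGAA, was searched on both strands and stood in 15 of the 27 windows (55.6%), against 28.3% of all 32851 promoter windows of that length. The longer GAGGAAGT, which contains it, stood in the windows of C1qc, Ctss and Inpp5d (11.1% of windows against 3.2% of all). Cx3cr1 and P2ry12, also described closely below, held 0 GAGGAA cores before the start site. Stretches before the start site are shown for C1qb, C1qc, Ctss and Laptm5, which held one, with the core in capitals (TTCCTC is GAGGAA read on the other strand).
C1qb, chr4:136886201-136886270, minus strand: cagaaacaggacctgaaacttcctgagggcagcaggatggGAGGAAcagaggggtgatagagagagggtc
C1qc, chr4:136893062-136893147, minus strand: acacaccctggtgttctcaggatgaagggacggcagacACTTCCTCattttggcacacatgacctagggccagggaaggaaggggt
Ctss, chr3:95526582-95526667, plus strand: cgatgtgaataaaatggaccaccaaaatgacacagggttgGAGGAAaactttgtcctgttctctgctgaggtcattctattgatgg
Laptm5, chr4:130913238-130913315, plus strand: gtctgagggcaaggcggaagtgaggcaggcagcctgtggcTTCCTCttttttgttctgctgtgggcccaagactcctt
The core began 30 bases before the start site in C1qb, 193 in C1qc, 164 in Ctss and 38 in Laptm5. In C1qc the capitals extend over the longer form. In Ctss the longer form, on the other strand, began 2 bases before the start site, with a core inside it, outside the stretch shown. A full glucocorticoid response element, searched as AGAACA and its reverse complement TGTTCT with 3 bases between them, was in 0 of the 27 windows and in 3 of all 32851. A single AGAACA, which the full element contains, was in 8 of the members' windows on either strand (29.6%, against 19.0% of all). A match of letters is not evidence of binding, and no match says only that these letters are absent from the window. No promoter of Tmem119, C1qa, Spi1 or Tyrobp was in the table used.

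The question put to the members was whether their levels in the ARC differed between Cort and vehicle. After 2 days of Cort, none of the 28 members tested passed Padj < 0.1 in edgeR's quasi-likelihood test on the kept samples, where 0.065% of all 12309 genes tested did (8 genes). C1qb and Ctss had an unadjusted P below 0.05 (2 of 28, with 5.97% of all genes below that level), both with the higher mean in Cort. Cd14 and Cd163 were too low to be tested. The fitted log2 fold change lay above 0 for 18 of the 28 (52.1% of all genes), and ranged from -0.81 for Cd68 to 1.78 for Mrc1 with a median of 0.17, against 0.018 over all genes. Over all 10 samples 13 of 28 lay above 0 (48.1% of all genes), the median was -0.058, and 0 of 28 passed Padj < 0.1 (0.0167% of all genes).

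After 4 weeks, none of the 22 members tested passed Padj < 0.1 in the same test, where 0.0446% of 11211 genes did (5 genes). Tmem119 alone had an unadjusted P below 0.05, with the higher mean in Cort (1 of 22, with 4.91% of all genes below that level). Trem2, Cd14, Inpp5d, Aif1, Mrc1, Cd163, Spi1 and Irf8 were too low to be tested. The fitted log2 fold change lay above 0 for 13 of the 22 (51.9% of all genes) and ranged from -2.04 for Cd68 to 2.56 for Tmem119, with a median of 0.15 against 0.038 over all genes. Over all 10 samples 0 of 19 tested passed Padj < 0.1 (0.00962% of all genes) and 0 had an unadjusted P below 0.05 (4.9% of all genes).

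DESeq2 also called 0 members at Padj < 0.1 in both datasets, where it called 0.324% and 0.441% of all genes. It gave an unadjusted P below 0.05 to 5 members at 2 days (C1qb, Ctss, Tmem119, Cd163 and Cd14) and to 4 at 4 weeks (Tmem119, Cx3cr1, Mrc1 and Irf8), where 6.15% and 6.33% of all genes had one. Without the filter on low counts, edgeR gave one to 4 members at 2 days (C1qb, Ctss, Cd163 and Cd14, with 7.06% of all genes) and to 3 at 4 weeks (Tmem119, Laptm5 and Cd163, with 6.94%). The lowest Padj of a member in DESeq2 was 0.19, for C1qb at 2 days. A test that misses the threshold does not show that a gene was unaffected. The 95% interval of the log2 fold change lay within -1 and 1, so within a change of 2-fold either way, for 6 members at 2 days (Cx3cr1, Csf1r, Olfml3, Ly86, Ctss and Ctsd; 44.7% of all genes) and for Ctsd alone at 4 weeks (9.73% of all genes). The median standard error of the members' log2 fold change was 0.47 at 2 days and 0.97 at 4 weeks.

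**Figure D2:**
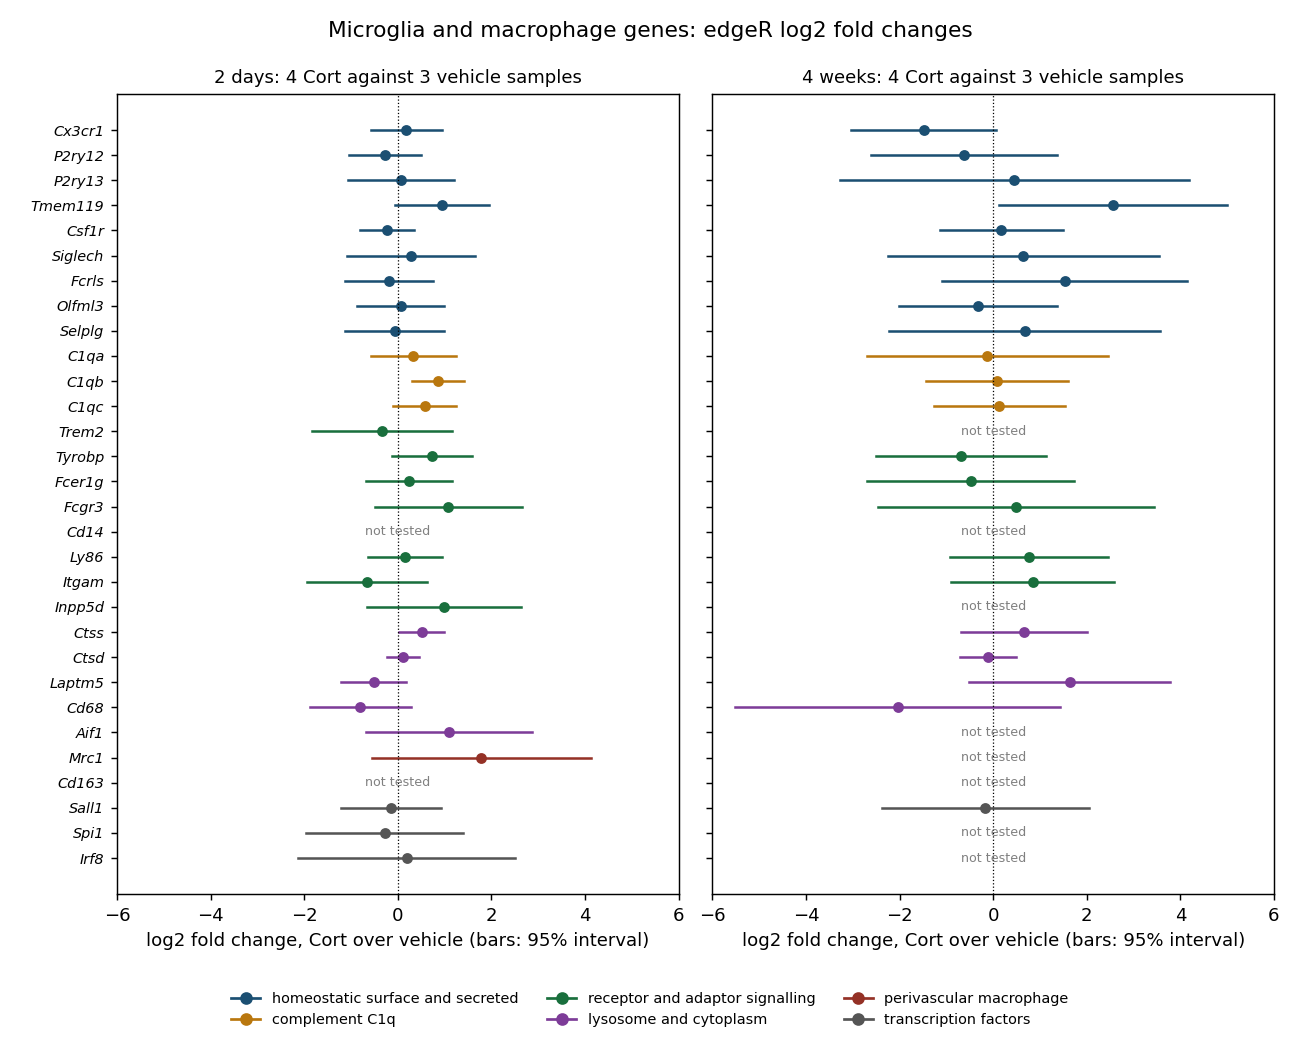
Points show the edgeR log2 fold change of each member, Cort over vehicle, and bars its 95% interval, for 3 vehicle and 4 Cort samples at 2 days (left) and 4 weeks (right), coloured by role. The intervals exclude 0 for C1qb and Ctss at 2 days and for Tmem119 at 4 weeks, and they are wider at 4 weeks, where 8 members were not tested.

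Summed over the 30 members, the kept samples at 2 days held 979 ± 48.0 CPM in vehicle (SD, n = 3) and 1092 ± 37.4 CPM in Cort (SD, n = 4). The kept groups did not overlap, with vehicle at 924 to 1013 CPM and Cort at 1066 to 1147 CPM, a ratio of 1.12. The 2 vehicle samples left out by the study held 1403 (C07) and 1241 CPM (C09), above every Cort sample, and with them the vehicle mean was 1116 ± 199 CPM (SD, n = 5) against 1088 ± 33.6 CPM (SD, n = 5). The 3 samples left out at 2 days also stood highest in the summed CPM of 12 tanycyte and ependymal genes, at 567 (C07), 567 (C08) and 406 (C09) against 189 to 376 CPM in the kept samples. They also had the highest sums of 15 blood cell genes, at 277, 279 and 134 against 25.0 to 114 CPM. The list of further microglial genes outside the 30 summed highest in these 3 samples, at 4327 (C07), 3911 (C08) and 4156 (C09) against 2566 to 3068 CPM. The list for disease-associated microglia did so too, at 4328, 4106 and 3719 against 2745 to 3379 CPM, and includes Fth1, which other cells also make. Of the 30 members themselves C08 held 1072 CPM, within the range of the kept Cort samples. The part of tanycytes, ependymal cells, blood cells or microglial number in the members' levels was not tested. At 4 weeks the summed CPM was 1002 ± 251 in kept vehicle samples (SD, n = 3) and 1064 ± 178 in kept Cort samples (SD, n = 4), and the groups overlapped. The 4 week sums with all 10 samples were 975 ± 369 and 1123 ± 204 CPM (SD, n = 5 each). Sample C01, a vehicle sample left out, had the smallest total count of all and the lowest member sum, 482 CPM. At 4 weeks 12 astrocyte genes summed to 3698 to 4035 CPM in kept vehicle and 4230 to 5800 CPM in kept Cort samples, which did not overlap. Over all 10 samples the groups overlapped, with vehicle at 2651 to 5091 and Cort at 4230 to 5800 CPM. Tanycyte and ependymal genes summed to 728 to 1110 CPM in kept vehicle and 346 to 879 CPM in kept Cort samples at 4 weeks. The part of these differences in the members' values was not tested.

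**Figure D3:**
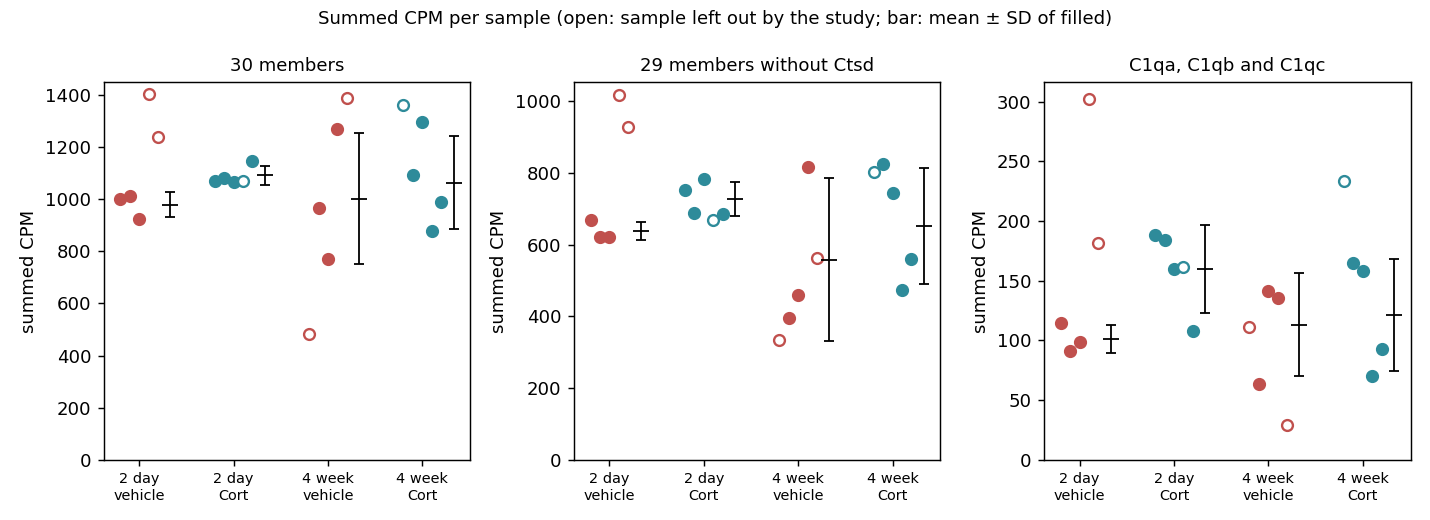
Points show the summed CPM per sample of the 30 members (left), of the 29 without Ctsd (middle) and of the 3 C1q subunits (right), open for samples left out by the study, and bars the mean ± SD of the kept samples. At 2 days the kept Cort samples (1066 to 1147 CPM) lie above the kept vehicle samples (924 to 1013 CPM), and the 2 vehicle samples left out (1403 and 1241 CPM) lie above both.

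Among the surface and secreted genes of resting microglia, none of 9 passed Padj < 0.1 at either time. Tmem119, a membrane protein found on microglia and not on blood-derived macrophages, had the largest fitted change of the 9 in both datasets. At 2 days Tmem119 stood at 5.47, 14.4 and 11.2 CPM in kept vehicle samples C02, C04 and C05 and at 19.8, 16.2, 16.4 and 27.4 CPM in kept Cort samples C01, C03, C06 and C10. These groups did not overlap, which was so for 2 of the 28 members tested (Tmem119 and Ctss) and for 6.63% of all genes. The samples left out closed the gap, with vehicle samples C07 at 4.05 and C09 at 33.9 CPM and Cort sample C08 at 13.3 CPM. The log2 fold change of Tmem119 at 2 days was 0.94 (SE 0.48, 95% interval -0.062 to 1.95; Padj = 0.86) over the kept samples and 0.44 (SE 0.51, 95% interval -0.62 to 1.51) over all 10.

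At 4 weeks Tmem119 stood at 3.04, 11.7 and 0.448 CPM in kept vehicle samples C02, C03 and C04 and at 60.7, 30, 17.5 and 13.2 CPM in kept Cort samples C07 to C10. The kept groups did not overlap, which was so for 1 of the 22 members tested and for 6.53% of all genes, and the value in C04 rested on 1 count. Vehicle sample C01, left out, stood at 33.0 CPM, above 3 of the 4 kept Cort samples. Over all 10 samples none of the members tested had groups free of overlap in either dataset, where 0.801% (2 days) and 0.942% (4 weeks) of all genes had such groups. For Tmem119 at 4 weeks the fitted value was 2.56 on the log2 scale (SE 1.15, 95% interval 0.13 to 4.99; Padj = 0.99) over the kept samples and 1.31 (SE 1.04, 95% interval -0.86 to 3.48) over all 10. Leaving out 1 kept sample at a time gave 1.98 to 4.06, and the unadjusted P was above 0.05 without C02, C04, C07 or C08.

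Cx3cr1, the receptor for fractalkine, stood at 32.8, 27.2 and 47.2 CPM in kept vehicle samples and at 60.6, 21.6, 31.3 and 47.3 CPM in kept Cort samples at 2 days, so that the groups overlapped fully. Its log2 fold change was 0.18 (SE 0.36, 95% interval -0.57 to 0.94). At 4 weeks Cx3cr1 stood at 27.7, 56.3 and 91.8 CPM in kept vehicle samples and at 7.22, 35.7, 19.6 and 21.8 CPM in kept Cort samples. Only Cort sample C08 reached into the vehicle range. Its log2 fold change there was -1.48 (SE 0.73, 95% interval -3.03 to 0.065; Padj = 0.99) in edgeR and -1.49 (SE 0.69; Padj = 0.51) in DESeq2. With all 10 samples it was -0.49 (SE 0.80, 95% interval -2.17 to 1.19), as vehicle sample C01 stood at 2.75 CPM and Cort sample C06 at 71.2 CPM.

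P2ry12, the nucleotide receptor that steers microglial processes, stood at 55.7, 38.8 and 24.6 CPM in kept vehicle samples and at 34.5, 25.6, 20.2 and 50.9 CPM in kept Cort samples at 2 days. At 4 weeks P2ry12 stood at 54.1, 18.5 and 27.8 CPM in kept vehicle samples and at 3.71, 57.6, 19.6 and 6.76 CPM in kept Cort samples. The groups overlapped in both datasets, with log2 fold changes of -0.27 (SE 0.37) and -0.62 (SE 0.94), and of -0.40 (SE 0.33) and 0.25 (SE 0.90) over all 10 samples. Its relative P2ry13 had fold changes of 0.07 (SE 0.54) and 0.45 (SE 1.76) on the same scale.

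Csf1r, the receptor on which microglia depend, was among the steadiest members. It stood at 81.6, 53.7 and 66.3 CPM in kept vehicle samples and at 77.5, 62.3, 39.1 and 48.5 CPM in kept Cort samples at 2 days, where the log2 fold change was -0.23 (SE 0.28, 95% interval -0.81 to 0.35). At 4 weeks Csf1r stood at 39.6, 52.3 and 92.2 CPM in kept vehicle samples and at 17.7, 71.9, 64.9 and 123.9 CPM in kept Cort samples, with a log2 fold change of 0.17 (SE 0.62). Olfml3, a secreted protein, had log2 fold changes of 0.06 (SE 0.45) at 2 days and -0.33 (SE 0.80) at 4 weeks. At 2 days Olfml3 stood at 25.9, 18.8 and 23.6 CPM in kept vehicle samples and at 13.3, 22.9, 44.6 and 12.7 CPM in kept Cort samples. At 4 weeks it stood at 26.0, 11.7 and 50.6 CPM and at 17.5, 21.4, 22.7 and 32.9 CPM. The groups overlapped at both times. The other 3 of these genes, Siglech, Fcrls and Selplg, had log2 fold changes of 0.28, -0.19 and -0.07 at 2 days and of 0.65, 1.53 and 0.68 at 4 weeks, with standard errors of 0.45 to 0.65 and of 1.23 to 1.37. With all 10 samples the sign at 4 weeks changed for Olfml3 (0.81, SE 0.86), Fcrls (-0.36, SE 1.17) and Selplg (-0.091, SE 1.24), and the sign at 2 days for Olfml3 (-0.080, SE 0.39) and Cx3cr1 (-0.23, SE 0.34).

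The 3 subunits of C1q, the molecule that starts the classical complement cascade, are made from neighbouring genes and assemble into 1 complex. After 2 days of Cort all 3 had a fitted log2 fold change above 0. C1qb stood at 63.7, 41.2 and 38.0 CPM in kept vehicle samples C02, C04 and C05, and at 99.0, 84.9, 96.6 and 60.1 CPM in kept Cort samples C01, C03, C06 and C10. The lowest Cort sample lay just under the highest vehicle sample. C1qb averaged 47.6 ± 14 CPM in kept vehicle (SD, n = 3) and 85.1 ± 17.8 CPM in kept Cort samples (SD, n = 4). Its log2 fold change was 0.85 (SE 0.27, 95% interval 0.29 to 1.41), the member furthest from 0 relative to its error, and did not pass after adjustment (Padj = 0.54). Leaving out 1 kept sample at a time gave 0.72 to 1.12. The vehicle samples left out stood at 120.3 (C07) and 93.8 CPM (C09), and over all 10 samples the log2 fold change was 0.26 (SE 0.28, 95% interval -0.33 to 0.85).

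C1qc stood at 32.1, 36.7 and 34.6 CPM in kept vehicle samples and at 49.2, 74.8, 49.3 and 30.2 CPM in kept Cort samples at 2 days. This gave 0.57 on the log2 scale (SE 0.32, 95% interval -0.095 to 1.24) over the kept samples and -0.40 (SE 0.37, 95% interval -1.17 to 0.37) over all 10, since C07 stood at 144.8 and C09 at 71.6 CPM. For C1qa the values were 0.33 (SE 0.43) and 0.30 (SE 0.40). Summed, the 3 subunits held 101 ± 11.8 CPM in kept vehicle (SD, n = 3) and 160 ± 37.0 CPM in kept Cort samples (SD, n = 4), but 158 ± 88.6 and 160 ± 32.0 CPM over all 10 samples (SD, n = 5 each).

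At 4 weeks C1qb stood at 15.6, 68.3 and 34.5 CPM in kept vehicle samples and at 47.2, 51.7, 55.7 and 14.4 CPM in kept Cort samples, and C1qc at 44.0, 65.5 and 81.1 CPM and at 114.7, 84.3, 8.76 and 71.6 CPM. Their log2 fold changes were 0.08 (SE 0.72) and 0.13 (SE 0.66), and that of C1qa was -0.12 (SE 1.21). The 95% interval for C1qb, -1.44 to 1.6, includes the value found at 2 days. With all 10 samples the 4 week log2 fold change of C1qc was 0.80 (SE 0.85). The summed CPM of the subunits at 4 weeks was 113 ± 43.4 in kept vehicle (SD, n = 3) and 121.5 ± 47.0 in kept Cort samples (SD, n = 4), and 95.9 ± 48.4 and 144.0 ± 64.6 over all 10 (SD, n = 5 each).

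The proportions of the 3 subunits differed between samples, and the cause was not tested. At 2 days C1qb made up 38.6 to 60.3% of the C1q counts of a sample, C1qc 23.3 to 47.9% and C1qa 8.92 to 26.4%. At 4 weeks the same shares ranged from 1.48 to 78.8% for C1qb, from 0 to 97.6% for C1qc and from 0.942 to 60.9% for C1qa. Vehicle sample C05 at 4 weeks held 0 counts of C1qc beside 27 of C1qb and 42 of C1qa, and Cort sample C06 held 725 of C1qc beside 11 of C1qb and 7 of C1qa. Both were among the samples left out by the study.

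Of the receptors and adaptors that signal in these cells, none of 7 tested at 2 days and none of 5 tested at 4 weeks passed Padj < 0.1. Tyrobp (DAP12), the adaptor through which TREM2 signals, stood at 27.4, 37.3 and 24.0 CPM in kept vehicle samples and at 20.8, 39.7, 94.7 and 38.6 CPM in kept Cort samples at 2 days. Its high Cort mean rested on sample C06. The fitted log2 fold change was 0.73 (SE 0.41, 95% interval -0.13 to 1.58) over the kept samples, 0.18 (SE 0.37) over all 10, and -0.68 (SE 0.85) at 4 weeks. At 4 weeks Tyrobp stood at 14.2, 20.1 and 52.8 CPM in kept vehicle samples and at 11.8, 10.7, 23.7 and 26.7 CPM in kept Cort samples, where vehicle sample C04 alone lay above the Cort range. Trem2 itself, the lipid-sensing receptor, had a log2 fold change of -0.34 (SE 0.72) at 2 days.

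The other members of this class that were tested spread around 0. The log2 fold changes at 2 days were 0.24 (SE 0.44) for Fcer1g, the signalling chain of Fc receptors, 1.08 (SE 0.75) for the Fc receptor Fcgr3 and 0.98 (SE 0.79) for the lipid phosphatase Inpp5d. They were 0.15 (SE 0.38) for Ly86 (MD-1), the partner of a Toll-like receptor homologue, and -0.65 (SE 0.62) for Itgam, the integrin chain CD11b. At 4 weeks the 4 that were tested, Fcer1g, Fcgr3, Ly86 and Itgam, gave -0.48, 0.50, 0.77 and 0.85, with standard errors of 0.80 to 1.39. With all 10 samples Fcer1g had the opposite sign at both times (-0.47, SE 0.42, and 0.54, SE 1.12), Ly86 had -0.30 at 2 days (SE 0.39), and Fcgr3 had 0.24 at 2 days (SE 0.63).

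Cd14, a co-receptor for bacterial lipopolysaccharide, was near the floor but differed in its counts at 2 days. The vehicle samples held 8, 15, 2, 3 and 1 counts (C02, C04, C05, C07 and C09) and the Cort samples 1, 0, 1, 1 and 0 (C01, C03, C06, C08 and C10). All 5 Cort samples were at or under the floor of 3 counts, as were 3 of the 5 vehicle samples. In CPM every vehicle sample stood above every Cort sample, but the lowest of the former and the highest of the latter each held 1 count. In the fits that kept such low genes, Cd14 had an unadjusted P below 0.05 and did not pass after adjustment, with Padj = 0.64 in edgeR and Padj = 0.66 in DESeq2. At 4 weeks 8 of 10 samples held 0 counts, Cort sample C10 held 1, and Cort sample C06, left out by the study, held 202 (63.6 CPM).

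In the lysosomal and cytoplasmic group, Ctss (cathepsin S), a protease of antigen-presenting cells, was the member with an unadjusted P below 0.05 at 2 days. Ctss stood at 68.9, 68.6 and 55.7 CPM in kept vehicle samples and at 73.9, 81.5, 105.0 and 105.0 CPM in kept Cort samples. The kept groups did not overlap, although the lowest Cort sample (C01) lay close to the highest vehicle sample (C02). Means were 64.4 ± 7.52 CPM (SD, n = 3) and 91.4 ± 16.1 CPM (SD, n = 4). For Ctss this was 0.51 on the log2 scale (SE 0.23, 95% interval 0.033 to 0.99; Padj = 0.81). With all 10 samples, of which vehicle C07 stood at 105.3 CPM, it was 0.36 (SE 0.22, 95% interval -0.096 to 0.82). The unadjusted P was above 0.05 when C02, C04, C05, C06 or C10 was left out. At 4 weeks Ctss stood at 25.4, 17.3 and 87.8 CPM in kept vehicle samples and at 87.3, 66.9, 41.7 and 78.7 CPM in kept Cort samples, with a log2 fold change of 0.65 (SE 0.63). Without vehicle sample C04 it was 1.68.

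Ctsd was the most precisely measured member. It stood at 333.1, 390.6 and 301.7 CPM in kept vehicle samples and at 321.1, 392.3, 283.8 and 462.6 CPM in kept Cort samples at 2 days. Cort over vehicle was 0.10 on the log2 scale (SE 0.16, 95% interval -0.24 to 0.44). At 4 weeks Ctsd stood at 570.8, 310.4 and 452.3 CPM in kept vehicle samples and at 268.4, 551.5, 402.0 and 429.4 CPM in kept Cort samples, with a log2 fold change of -0.12 (SE 0.28, 95% interval -0.71 to 0.48). The groups overlapped at both times.

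Laptm5, a lysosomal protein of blood-lineage cells, had log2 fold changes of opposite sign at 2 days, -0.51 (SE 0.33), and at 4 weeks, 1.63 (SE 1.01). At 2 days it stood at 60.2, 34.9 and 72.6 CPM in kept vehicle samples and at 24.8, 32.7, 42.7 and 56.1 CPM in kept Cort samples. At 4 weeks the kept vehicle samples stood at 27.4, 14.1 and 29.5 CPM, and the kept Cort samples at 250.9 (C07), 10.7, 7.21 and 27.4 CPM. Sample C07 held 1216 counts of Laptm5, and without it the log2 fold change was -0.65. Over all 10 samples it was 0.90 (SE 0.88).

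Cd68, a lysosomal membrane protein used to mark phagocytic cells, had the lowest fitted log2 fold change in both datasets, -0.81 (SE 0.52, 95% interval -1.88 to 0.27) at 2 days and -2.04 (SE 1.64, 95% interval -5.52 to 1.43) at 4 weeks. At 2 days it stood at 12.7, 17.5 and 16.3 CPM in kept vehicle samples and at 13.1, 6.40, 8.93 and 6.36 CPM in kept Cort samples. Here the samples left out widened the difference, with vehicle samples at 14.4 (C07) and 33.4 CPM (C09) and Cort sample C08 at 5.94 CPM. Over all 10 samples the log2 fold change was -1.18 (SE 0.46, 95% interval -2.15 to -0.22; Padj = 0.92). Cd68 was then the only member with an unadjusted P below 0.05 in edgeR (1 of 28, with 5.28% of all genes below that level). At 4 weeks Cd68 had 0 counts in 3 of the 5 vehicle samples, and C04 held 109. Aif1, which encodes the microglial marker IBA1, had a log2 fold change of 1.10 (SE 0.85) at 2 days and was too low to be tested at 4 weeks.

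**Figure D4:**
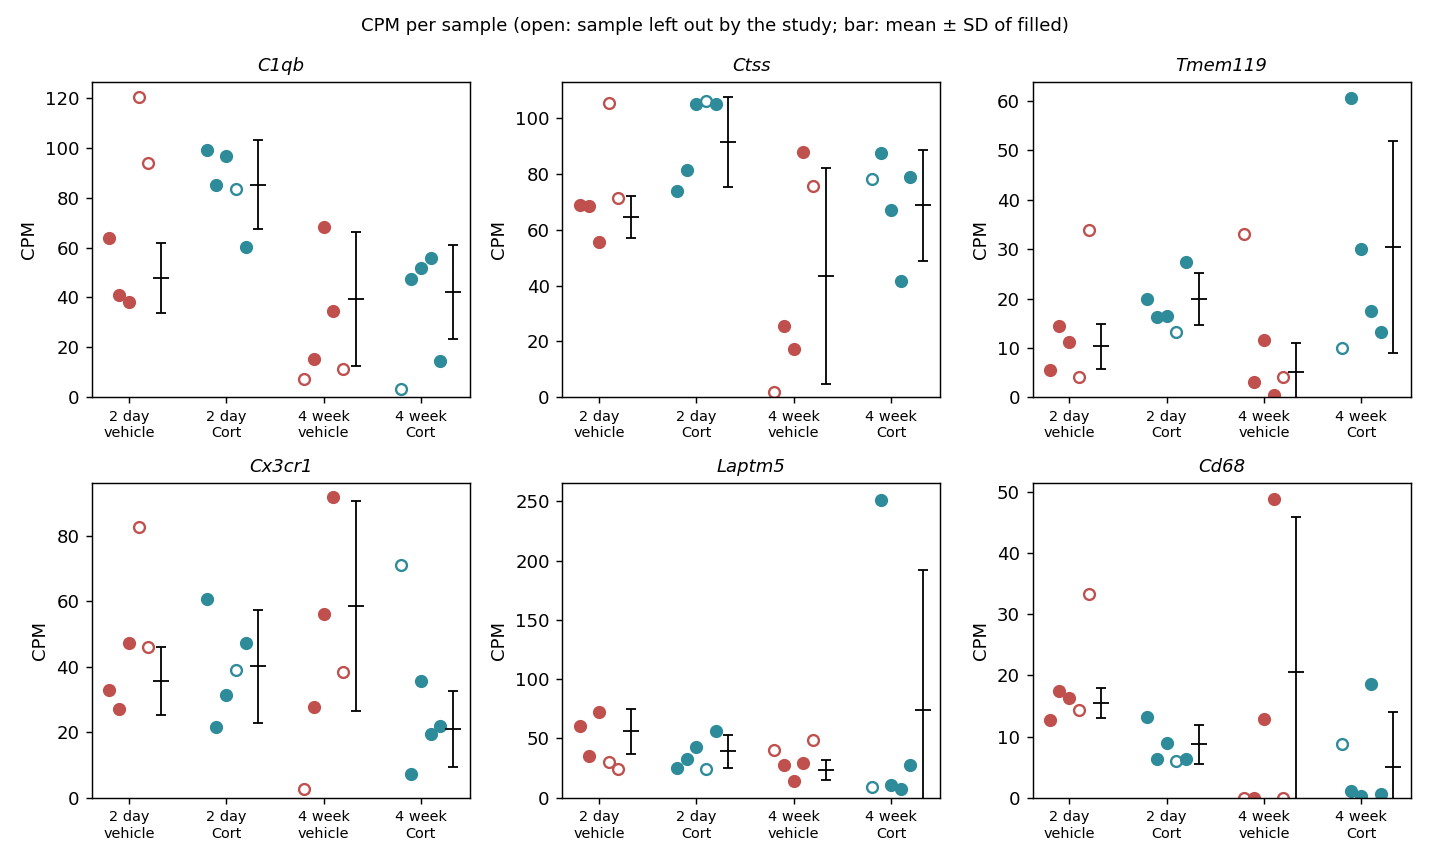
Points show CPM of C1qb, Ctss, Tmem119, Cx3cr1, Laptm5 and Cd68 in each of the 20 samples, open for samples left out by the study, and bars the mean ± SD of the kept samples. The open vehicle points lie within or above the Cort points for C1qb at 2 days (120.3 and 93.8 CPM), and 1 Cort sample at 250.9 CPM sets the mean of Laptm5 at 4 weeks.

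The markers of perivascular macrophages, which sit along vessels and not in the tissue proper, were close to the floor. Mrc1 (CD206, the mannose receptor) held 8, 8, 0, 1 and 38 counts in the vehicle and 47, 3, 15, 37 and 13 counts in the Cort samples at 2 days. Its log2 fold change over the kept samples was 1.78 (SE 1.12, 95% interval -0.56 to 4.12). Cd163, the haemoglobin scavenger receptor and a well known glucocorticoid-induced gene of macrophages, held 1, 1, 0, 22 and 2 counts in the vehicle and 32, 5, 20, 5 and 1 counts in the Cort samples at 2 days. All 3 kept vehicle samples and 1 of 4 kept Cort samples were under the floor of 3 counts. Cd163 had an unadjusted P below 0.05 and did not pass after adjustment, with Padj = 0.63 in edgeR without a filter and Padj = 0.45 in DESeq2. Mrc1 at 4 weeks held 0, 0 and 3 counts in kept vehicle samples and 63, 4, 19 and 9 counts in kept Cort samples, but 0 in Cort sample C06. At 4 weeks Cd163 held 185 counts in Cort sample C08 and at most 4 in every other sample. A list of 14 further genes of macrophages at the brain's borders had 1 member high enough to be tested, Stab1, and the sum of all 14 lay between 2.14 and 8.80 CPM in the 2 day samples and between 0.402 and 25.5 CPM in the 4 week samples.

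The transcription factors had log2 fold changes of -0.14 (SE 0.51) for Sall1, -0.28 (SE 0.81) for Spi1 and 0.19 (SE 1.11) for Irf8 at 2 days. Sall1 gave -0.17 (SE 1.04) at 4 weeks. Spi1 held 0 counts in 7 of the 10 samples at 4 weeks. Irf8 held 9, 2 and 40 counts in the kept vehicle samples and 0, 0, 2 and 1 counts in the kept Cort samples at 4 weeks. All 5 Cort samples were at or under the floor, and the vehicle samples left out held 0 (C01) and 14 counts (C05). DESeq2 gave Irf8 an unadjusted P below 0.05 there, without an adjusted value.

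Whether the response to Cort differed between the datasets was tested directly, in 1 edgeR fit over the 14 kept samples. None of 29 members passed Padj < 0.1, where 0.0157% of 12777 genes did (2 genes), and none had an unadjusted P below 0.05 (6.49% of all genes did). DESeq2 called none at Padj < 0.1 (0.403% of all genes) and gave Irf8 and Cx3cr1 an unadjusted P below 0.05 (2 of 30 members, with 6.82% of all genes below that level). In edgeR such a P was also given to Laptm5 without the filter (7.11% of all genes) and to Irf8 over all 20 samples (6.23%). Furthest from 0 relative to their errors in edgeR were Irf8, with a difference of -4.76 on the log2 scale (4 weeks minus 2 days; SE 2.30, 95% interval -9.55 to 0.033; Padj = 0.78), and Cx3cr1, with -1.66 (SE 0.81, 95% interval -3.34 to 0.023; Padj = 0.78). Laptm5 followed with 2.15 (SE 1.15, 95% interval -0.25 to 4.54). The differences for Tmem119 and C1qb were 1.62 (SE 1.16) and -0.76 (SE 0.71). The 95% interval lay within -1 and 1 for Ctsd alone among the members, at -0.94 to 0.50 (6.88% of all genes).

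The datasets differed in the spread between samples of a group. They also differed in depth, and its part in the spread was not tested. Over the 22 members tested in both, the median within-group SD of log2 CPM was 0.70 at 2 days and 1.49 at 4 weeks, and it was larger at 4 weeks for 21 of 22, all but Fcgr3. The same held for 95.36% of the 11016 genes tested in both, whose median SD was 0.52 and 1.20. edgeR's common biological coefficient of variation was 40.3% at 2 days and 79.7% at 4 weeks over the kept samples.

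**Figure D5:**
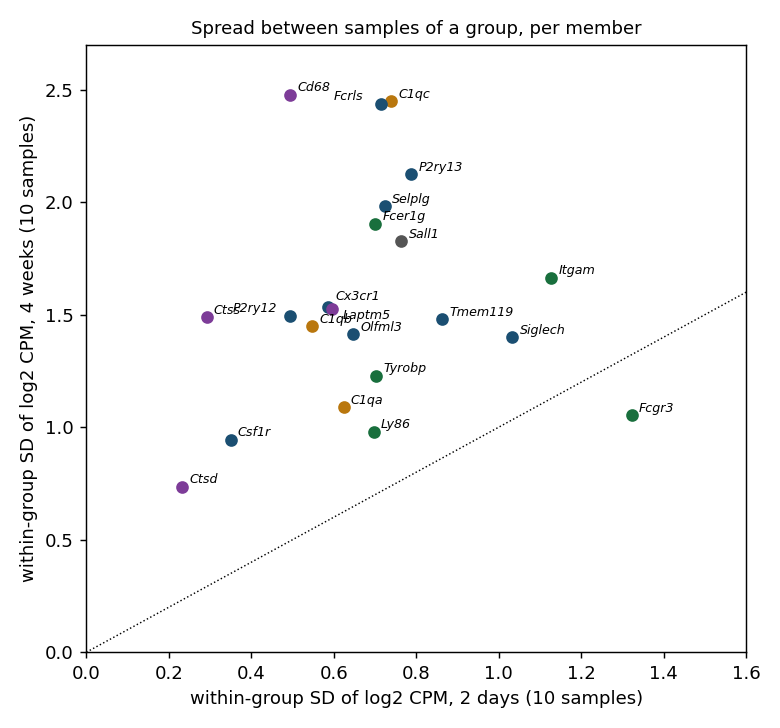
Each point is a member tested in both datasets, placed by its within-group SD of log2 CPM over the 10 samples at 2 days (x axis) and over the 10 samples at 4 weeks (y axis), coloured by role, with a dotted line of equal spread. Of 22 points 21 lie above the line, and Fcgr3 lies below it.

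For some members a single sample carried much of the counts at 4 weeks. Among genes with at least 100 counts over the 10 samples of a dataset, 1 sample held more than 50% of the summed CPM for 5 of 27 members at 4 weeks (18.5%, against 8.81% of 11574 genes) and for 0 of 28 at 2 days (against 1.34% of 12289 genes). The 5 were Cd14 (99.5% in Cort sample C06), Cd163 (92.9% in Cort sample C08), Trem2 (67.8% in vehicle sample C05), Laptm5 (53.9% in Cort sample C07) and Cd68 (53.7% in vehicle sample C04). The samples concerned were different ones for 5 of 5 genes, and 2 of the 5 samples (C05 and C06) were left out by the study. By the same count rule, the median share of the highest sample at 4 weeks was 28.9% for the members and 25.0% for all genes.

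Correlations between members were mostly weak. After each group's mean was subtracted, the median Spearman correlation between 2 members over the 10 samples of a dataset was 0.03 at 2 days (378 pairs) and 0.07 at 4 weeks (231 pairs). Values above 0.5 made up 11.6% and 9.52% of member pairs and 9.38% and 9.43% of all gene pairs. The pairs with the highest values in both datasets were Csf1r with Fcgr3 (0.92 and 0.78), Csf1r with C1qa (0.74 and 0.77) and Olfml3 with Tyrobp (0.79 and 0.65). All points of a pair come from the same libraries, so depth and amplification are shared, and the values are descriptions. The genes outside the list whose levels followed the members' mean log2 CPM most closely over the 20 samples were ranked likewise by Spearman correlation after each group's mean was subtracted, among 9725 genes with at least 10 counts in at least 15 samples. They were Tmem9 (0.81), Arntl (0.79), Htra1 (0.78), Lcat (0.76), Hdac11 (0.76), Tmem29 (0.73), Imp3 (0.72), Anxa6 (0.72), Synpo2 (0.72) and Cbx7 (0.70). These are the highest of 9725 values, and whether they exceed chance was not tested. For the members with enough counts by the same rule, correlations of this kind ranged from -0.395 for Laptm5 to 0.74 for C1qb, with Csf1r at 0.33 and Tmem119 at -0.13.

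Further genes of microglia and of their partners were taken from lists outside the 30. Of 36 further microglial genes, 30 were tested at 2 days and 26 at 4 weeks, and none passed Padj < 0.1. At 2 days 1 had an unadjusted P below 0.01 (1.49% of all genes), Itgb2, the integrin chain that pairs with Itgam, at 3.18 ± 1.23 CPM in kept vehicle (SD, n = 3) and 13.3 ± 9.31 CPM in kept Cort samples (SD, n = 4). Its log2 fold change was 2.06 (SE 0.70; Padj = 0.62). At 4 weeks 3 had an unadjusted P below 0.01 (1.03% of all genes), the checkpoint molecule Vsir (log2 fold change 3.28, SE 0.98), the transcription factor Mef2c (1.71, SE 0.54) and the integrin chain Itgb5 (-2.86, SE 0.85), with Padj of 0.89 to 0.92.

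Of 18 ligands and partners of microglial receptors, 16 were tested in each dataset and none passed Padj < 0.1. Cx3cl1, the neuronal fractalkine that binds CX3CR1, averaged 64.2 ± 32.8 CPM in kept vehicle (SD, n = 3) and 195.2 ± 92.8 CPM in kept Cort samples (SD, n = 4) at 4 weeks. Its log2 fold change was 1.59 (SE 0.46; Padj = 0.89) over the kept samples. For its receptor Cx3cr1 the value was -1.48 (SE 0.73) there and -0.49 (SE 0.80) over all 10 samples. A link between ligand and receptor was not tested. At 2 days the log2 fold change of Cx3cl1 was -0.29 (SE 0.18). Mertk, a receptor for the clearance of dying cells that astrocytes also carry, had 2.54 (SE 0.84; Padj = 0.92 in edgeR) at 4 weeks and 1.19 (SE 0.85) over all 10 samples. The study, which used DESeq2 on the kept samples, names Mertk among its genes raised at 4 weeks at Padj < 0.1. The CSF1R ligands gave 0.16 (SE 0.32) for Csf1 and 0.02 (SE 0.55) for Il34 at 2 days, and 1.20 (SE 0.73) and 1.34 (SE 1.70) at 4 weeks.

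Lists of activation did not pass in either dataset. Of 18 genes of disease-associated microglia, 17 were in the table, 13 were tested at 2 days and 11 at 4 weeks. At 2 days Fth1, the ferritin heavy chain that other cells also make, had an unadjusted P below 0.01 (log2 fold change 0.43, SE 0.13; Padj = 0.51), and a log2 fold change of 0.13 (SE 0.21) over all 10 samples. Of 22 cytokine, inflammatory and interferon genes, 8 were high enough to be tested at 2 days and 7 at 4 weeks, and none had an unadjusted P below 0.01. At 2 days 1 of the 8 had an unadjusted P below 0.05 (5.97% of all genes), with the lower level in Cort. The median log2 fold change of those tested was -0.25 and -1.21, against 0.018 and 0.038 over all genes, with 2 fitted higher at each time (52.1% and 51.9% of all genes).

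Known glucocorticoid-induced genes were read beside the members. Of 13 such genes, 5 had an unadjusted P below 0.01 at 2 days, all with the higher mean in Cort (1.49% of all genes had an unadjusted P below 0.01). Glul passed Padj < 0.1 (log2 fold change 0.54, SE 0.10; Padj = 0.042), and Fkbp5 had 1.57 (SE 0.35; Padj = 0.24). The other 3 were Cdkn1a (1.48), Mt2 (0.90) and Mt1 (0.63), with Padj of 0.44 to 0.59. At 4 weeks 1 of 12 tested had an unadjusted P below 0.01, Mt2 (1.25, SE 0.41; Padj = 0.92; 1.03% of all genes). Lists of 9 arcuate neuron, 15 blood cell, 15 endothelial and pericyte, 12 astrocyte, 13 oligodendrocyte, 12 neuron, 12 tanycyte and ependymal, 8 meningeal and 6 ventromedial nucleus genes were read for the other cells of the dissected tissue. Those that passed Padj < 0.1 were Agrp and the oligodendrocyte gene Mobp at 2 days (log2 fold changes 1.32 and 1.72) and Npy at 4 weeks (-2.31). Genes of these lists with an unadjusted P below 0.01 and Padj above 0.1 were, at 2 days, Alas2 (2.92), Dio2 (1.36), Aldoc (0.34), Pomc (0.56), Npy (0.49) and Slc17a6 (-0.62), and at 4 weeks Slc1a2 (0.46), Tac2 (1.98) and Gpr50 (-1.04), all as log2 fold changes. These Padj are from edgeR, which called 8 genes at 2 days where DESeq2 called 52. The study, with DESeq2 on the kept samples, had Dio2, Fkbp5 and Mt2 at Padj < 0.1 at 2 days. It also found Dio2 raised by qRT-PCR and by in situ hybridization.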

How the data were processed

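RNA from laser-captured ARC was amplified to cDNA (Ovation RNA-seq System V2) and sequenced as single 50 base reads. The authors mapped reads to GRCm38 with Rsubread and deposited raw counts per gene from featureCounts, per the labels and the methods. Their notes also name CASAVA 1.7 and DESeq2. The deposited normalised tables served only to pair gene identifiers with symbols, and their 14 columns of per-sample values were not used.

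Each column of a count table was given its group through the study's sample code, and no replicate number of the labels. Each sample is described as the ARC of 1 mouse. The 30 members and all other lists were chosen with earlier results of these data known.

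Counts were tested with edgeR 4.0.16 (TMM scaling, filterByExpr, quasi-likelihood, 2-sided, 4 Cort against 3 vehicle samples) on R 4.3.3 over all genes, with Benjamini-Hochberg adjustment, and thresholds of Padj below 0.1 and unadjusted P below 0.01 and 0.05. A further fit over 14 samples tested the difference between datasets. CPM used TMM factors over the 10 samples of a dataset, and log2 CPM a prior count of 2. The scripts were tested on simulated data with less spread between samples than either dataset and with changes only in genes of high count. Alternatives were DESeq2 1.42.0, RLE and upper quartile scaling, no filter, all samples, limma 3.58.1 voom with sample weights, and leaving out each sample.

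Values per sample are given for members with P below 0.05 and for the 10 with the highest mean CPM. Genes of other lists are named at Padj below 0.1 or P below 0.01, at most 6 a list. Other members and genes with values (Cd68, Cd14, Cd163, Mrc1, Irf8, Csf1, Il34 and Stab1) were chosen after their values were seen. For 1 gene of the further microglial list no value is reported here.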

Additional observations from a re-analysis of the deposited data

Results flagged for a closer look

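Of 48 groups of 5 samples tested, 2 held a sample that stood apart from the others by Dixon's criterion, computed on the log2 scale, where chance gives about 1 in 20. The first was C1qc in the 4 week vehicle group, where sample C05 had 0 CPM and the other 4 lay between 44.0 and 99.1 CPM. C05 was among the samples left out by the study. The second was the summed CPM of the members in the 2 day Cort group, where sample C10 held 1147 CPM and the other 4 lay between 1066 and 1082 CPM. C10 had the smallest total count of the 2 day samples, 2487063.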

How the results depend on the processing

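No member passed Padj < 0.1 in either dataset or for their difference under any alternative run. These were DESeq2, upper quartile scaling, no filter, all samples and leaving out each kept sample and, within datasets only, RLE scaling and voom with sample weights. Over all 10 samples the median log2 fold change of the members at 2 days was -0.058 in place of 0.17, and the log2 ratio of their summed CPM was -0.037 in place of 0.16. The fitted sign then differed for 5 of 28 members at 2 days and 6 of 19 at 4 weeks, and with a kept sample left out for 15 of 28 and 13 of 22 at least once. It differed for 0 under DESeq2, RLE, upper quartile scaling or no filter. Leaving out 1 kept sample moved the median log2 fold change to between 0.076 and 0.37 at 2 days (0.37 without C05) and between -0.028 and 0.34 at 4 weeks, and the log2 ratio of the sums to between 0.12 and 0.18 and between -0.071 and 0.29. With no scaling beyond the total count the 4 week ratio was -0.013 in place of 0.09. Members with an unadjusted P below 0.05 numbered 2 at 2 days (2 to 4 with a sample left out, 5 in DESeq2, 4 with no filter, 1 over all 10 in edgeR), 1 at 4 weeks (0 to 2, 4, 3 and 0) and 0 for the difference (0 to 3, 2, 1 and 1 over all 20). Voom with sample weights over all 10 gave one at 2 days to C1qb (0.67, SE 0.26), Cd68 (-0.965, SE 0.45) and Itgam (-1.24, SE 0.55). There 705 of 11983 genes had one. At 4 weeks it gave one to Tmem119 (2.17, SE 1.01), where 557 of 10398 genes had one. The cause was not tested. No paired analysis was possible because the columns of the count tables carry no replicate number of the labels. The study also describes no pairing of individual mice. They were singly housed, and the treatment groups were formed to have equivalent baseline body weight. The standard errors at 4 weeks leave all but Ctsd without a bound of 2-fold.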
